A study of Mus with 2 samples.

Results

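The 10 genes described here make or use glutathione, or remove superoxide and peroxides: Gclc, Gclm, Gss, Gsta4, Gstm1, Mgst1, Gpx1, Gpx4, Sod1 and Sod2. Each was the row of the gene list that carries its symbol, 10 of 27998 rows in all. The genes were chosen by name with the measured levels of these same 2 libraries in view, so the counts and medians over them are descriptions. The libraries hold single-cell RNA-Seq of hematopoietic stem cells (HSCs) sorted from mouse bone marrow, and they compare HSCs that had lost Id2, an inhibitor of helix-loop-helix transcription factors, with HSCs that had kept it.

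The 2 groups were Mx1-Cre; Id2+/+ and Mx1-Cre; Id2Δ/Δ mice, with 1 library of 5 pooled mice each, aged 8 to 12 weeks. Mx1-Cre is a Cre transgene under an interferon-responsive promoter, and the study's methods have both groups given pIpC, which induces interferon, 2 weeks before the cells were purified. From tibias and fibulas 1000 cells with the surface phenotype LSK FLT3- CD150+ CD48- were sorted and captured on a 10x Genomics Chromium. One sentence of the labels names Id2+/+ bones as the source of the Id2Δ/Δ cells, while the title and genotype fields name Id2Δ/Δ. In the retained cells (those left after other cell types were removed) Id2 itself had 22 UMIs (10.3 CPM, UMIs of a gene per 1000000 UMIs of the cells summed) in Id2+/+ and 0 in Id2Δ/Δ. The exact upper bound of that count of 0 was 0.787 CPM. The deleted stretch ends before the last exon of Id2, as the study describes the allele, so a 3′ tag need not lie inside it. With 1 library a genotype there was no replicate and no test: the intervals in parentheses are exact 95% intervals that cover counting error only, and a difference between genotypes cannot be told apart from a difference between libraries.

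Glutathione is a tripeptide that serves as the main thiol antioxidant of cells. Glutamate-cysteine ligase, made of the catalytic subunit Gclc and the modifier subunit Gclm, performs its rate-limiting step, and glutathione synthetase (Gss) completes it. Glutathione S-transferases (Gsta4, Gstm1 and the membrane-bound Mgst1) attach it to electrophiles, Gsta4 with a preference for the lipid peroxidation product 4-hydroxynonenal. The selenoenzymes Gpx1 and Gpx4 spend it to reduce hydrogen peroxide and, for Gpx4, lipid hydroperoxides in membranes, which restrains ferroptosis. Sod1 in the cytosol and Sod2 in mitochondria turn superoxide into hydrogen peroxide. Low levels of reactive oxygen species are a known property of quiescent HSCs, and red cells are known to depend on glutathione and superoxide dismutase.

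In RefSeq GRCm38.p6, which shares its coordinates with mm10, the build named in the submitters' notes, all 10 genes are protein coding. Gclc lies at chr9:77754535-77794489, Gsta4 at chr9:78191966-78209349 and Gpx1 at chr9:108339080-108340342, all on chromosome 9. Gstm1 (chr3:108012250-108017973) and Gclm (chr3:122245487-122267215) lie on chromosome 3. The others are Gss (chr2:155563181-155592810), Mgst1 (chr6:138140527-138156755), Gpx4 (chr10:80047166-80056439), Sod1 (chr16:90220762-90226333) and Sod2 (chr17:13007839-13018119). Gclm overlaps the pseudogene Gm6061 and the long noncoding gene Gm46822, and Gss overlaps the noncoding Gssos2; whether the counting used strand was not given in the sources used here. Gstm1 has 6 rows of the Gstm family beside it in the gene list, and Gsta4 has 3 of the Gsta family, so UMIs of near-identical copies could be split between rows or lost.

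Of 8612217 UMIs in Id2+/+ and 17140713 in Id2Δ/Δ, 47.7% and 69.3% fell in 349 and 632 barcodes called as cells, 333 and 625 of them under a mitochondrial limit of 10%, where the labels give 383 and 686 cells analysed. The 2 libraries shared 1 called barcode. The sort gate should exclude maturing cells, yet 44 and 169 cells carried the erythroid markers fixed for this work and 27 and 40 the neutrophil ones. The remaining 262 and 416 cells are called retained, at a median depth of 7081 and 9663 UMIs per cell, and 12 of 13 HSC markers were higher in them than in both removed kinds in both libraries (all but Mllt3). Within the retained cells, clusters c0 and c1 had at least 3 HSC markers (HSC-like, 173 and 161 cells), c3 and c8 at least 3 megakaryocyte markers, Pf4 among their leading genes (megakaryocyte-like, 52 and 85), and c2 and c5, led by Ung and Hells or by Hist1h2bc and Ccnb2, neither (other retained, 37 and 170). HSC-like cells of Id2+/+ were mostly in c0, led by Fos, Dusp1 and Jun, and those of Id2Δ/Δ mostly in c1, led by Cd74 and H2-Aa. Barcodes of 1 to 100 UMIs, called empty droplets, held 46.3% of the Id2+/+ UMIs and 22.4% of the Id2Δ/Δ UMIs, and haemoglobin genes set the share of free RNA in retained cells at 10.5% and 5.41%.

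The widest differences among the members lay between kinds of cell. The transferases Gstm1 and Mgst1 were highest in neutrophil-like cells, intermediate in HSC-like cells and lowest in erythroid-like cells, although sparse Mgst1 counts did not separate those from megakaryocyte-like cells, while Gsta4 had its highest level in HSC-like cells. Glutamate-cysteine ligase, Gss and both dismutases had their highest level in erythroid-like cells, Gpx1 in neutrophil-like cells. The erythroid-like intervals overlapped those of some retained classes for Gss and Sod1 in both libraries, and for Gclc and Sod2 in Id2+/+. No member passed a 1.5-fold ratio between genotypes in the retained cells. All levels are CPM, and since 3′ UMIs carry no length correction, each gene is compared with itself only.

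**Figure D1:**
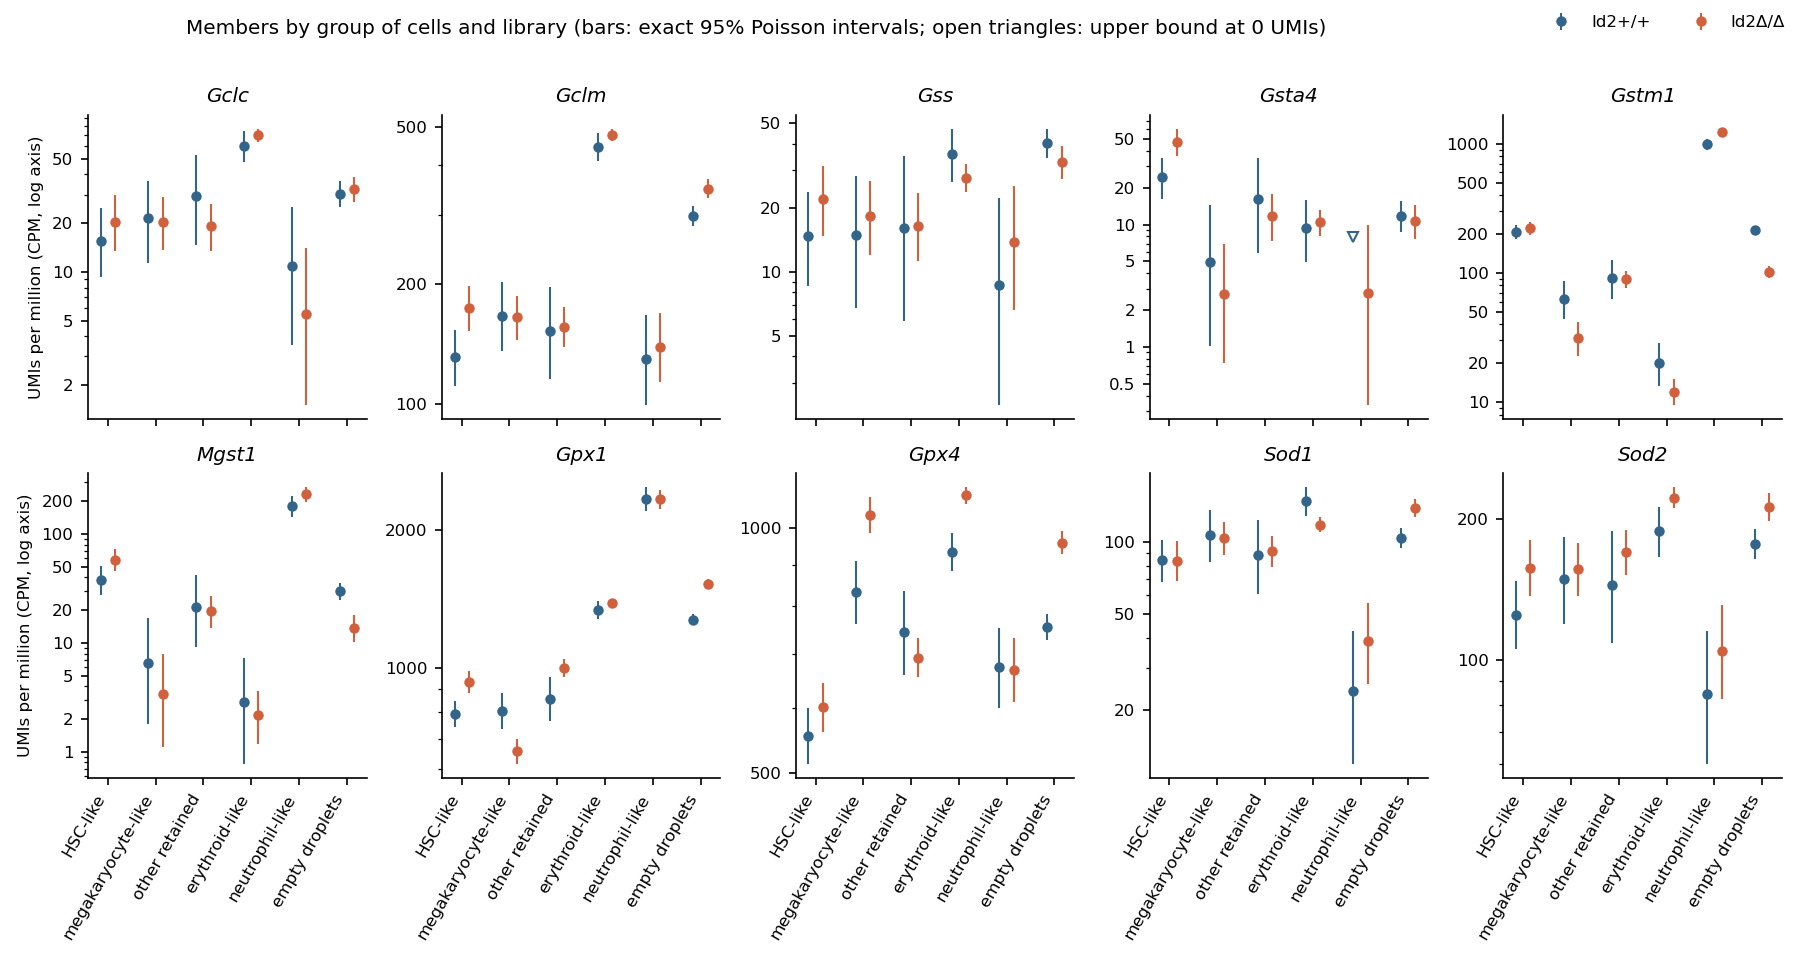
Level of each of the 10 genes (CPM, log axis, a separate axis for each gene) in 5 groups of cells and in empty droplets, blue for Id2+/+ and orange for Id2Δ/Δ, with exact 95% Poisson intervals as bars and the upper bound of a count of 0 as an open triangle. For most genes the points of the 2 libraries lie close together within a group of cells, while Gstm1 and Mgst1 span orders of magnitude between groups.

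Gclm, the modifier subunit, stood at 444 CPM (410.1 to 481) in Id2+/+ and 477 CPM (460.3 to 494) in Id2Δ/Δ in erythroid-like cells. In HSC-like, megakaryocyte-like and other retained cells it had 131 and 174, 167 and 165 and 152 and 156 CPM in Id2+/+ and Id2Δ/Δ respectively, and 129.9 and 139 CPM in neutrophil-like cells. Erythroid-like cells therefore stood above the 4 other groups in both libraries, and these 4 lay between 129.9 and 174 CPM. The erythroid-like level was 3.07-fold (2.67 to 3.53) the retained level in Id2+/+ and 2.91-fold (2.68 to 3.15) in Id2Δ/Δ. The catalytic subunit Gclc was likewise highest there, with 60.003 CPM (47.9 to 74.3) in Id2+/+ and 70.1 CPM (63.7 to 76.8) in Id2Δ/Δ in erythroid-like cells. Its retained level was 19.7 and 19.8 CPM (42 and 93 UMIs), 3.05-fold (2.08 to 4.53) and 3.53-fold (2.82 to 4.46) below the erythroid-like one. Both subunits of the ligase were thus about 3 times as high in erythroid-like as in retained cells. In neutrophil-like cells Gclc rested on 5 and 4 UMIs, or 10.8 and 5.51 CPM. Gss, which adds glycine in the last step, had 35.7 and 27.7 CPM in erythroid-like and 14.999 and 18.6 in retained cells, a 2.38-fold (1.498 to 3.84) and 1.49-fold (1.15 to 1.95) difference. In the 3 retained classes Gss lay between 14.7 and 21.9 CPM, with intervals that overlapped throughout. In empty droplets Gclm was at 298 and 349 CPM, Gclc at 30.4 and 32.5 and Gss at 40.1 and 32.8, above the retained level for all 3. At the free RNA shares given above it would make up 21.5% and 11.5% of retained Gclm and 28.04% and 9.54% of retained Gss.

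Gstm1, a cytosolic mu-class transferase, had 992 CPM (903 to 1087) in Id2+/+ and 1228 CPM (1149 to 1311) in Id2Δ/Δ in neutrophil-like cells. HSC-like cells followed with 208 and 222 CPM, other retained cells with 90.9 and 89.7, megakaryocyte-like cells with 62.7 and 31.1 and erythroid-like cells with 20.001 and 11.99. The order held in both libraries, and only the intervals of the 2 middle groups of Id2+/+, other retained and megakaryocyte-like, overlapped. Neutrophil-like cells had 6.78-fold (5.86 to 7.86) and 11.3-fold (10.1 to 12.6) the retained level, and erythroid-like cells were 7.31-fold (4.96 to 11.2) and 9.06-fold (7.12 to 11.7) lower than retained cells. Mgst1, the microsomal transferase, showed the same ends: 182 and 233 CPM in neutrophil-like, 38.1 and 58.2 in HSC-like, 6.60 and 3.38 in megakaryocyte-like and 2.86 and 2.18 in erythroid-like cells. The megakaryocyte-like and erythroid-like values of Mgst1 rested on 4 and 5 and on 4 and 14 UMIs. Gsta4, an alpha-class transferase, had its own order, with 24.3 CPM (16.1 to 35.1) in Id2+/+ and 47.6 CPM (36.6 to 60.9) in Id2Δ/Δ in HSC-like cells. It stood at 16.04 and 11.7 CPM in other retained cells, 9.29 and 10.4 in erythroid-like and 4.95 and 2.71 in megakaryocyte-like cells (3 and 4 UMIs). Neutrophil-like cells held 0 and 2 UMIs of Gsta4, which put the gene at least 2.67-fold below retained cells in Id2+/+ with 3 counts as the floor (the exact lower bound, which also takes in the counting error of the retained UMIs, was 2.06-fold) and 6.90-fold (1.85 to 57.8) below in Id2Δ/Δ. Gsta4 was among the 10 leading genes of cluster c1, although the members were left out of the clustering.

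Gpx1, the abundant cytosolic peroxidase, had 2345 and 2344 CPM in neutrophil-like cells, 1341 and 1389 in erythroid-like cells and 807 and 872 in retained cells. Neutrophil-like cells were 2.91-fold (2.69 to 3.14) and 2.69-fold (2.54 to 2.85) above retained cells, and erythroid-like cells 1.66-fold (1.56 to 1.78) and 1.59-fold (1.53 to 1.65) above them. The haemoglobin-rich cells, 9 and 13 of the erythroid-like cells, kept Gpx1 at 1047 and 1610.3 CPM although haemoglobin took most of their UMIs. In the same cells Gpx4 was at 73.9 and 44.7 CPM (6 and 5 UMIs), Gclm was at 222 and 242 and Sod1 had no UMI in either library. Gpx4, the lipid hydroperoxide reductase, was highest in erythroid-like cells at 934 and 1096 CPM, next to megakaryocyte-like cells at 833 and 1036. HSC-like cells had the lowest Gpx4 of the 5 groups, 555 CPM (513 to 599.5) in Id2+/+ and 601 CPM (560.2 to 645) in Id2Δ/Δ. Megakaryocyte-like cells exceeded HSC-like cells by 1.502-fold (1.33 to 1.69) and 1.72-fold (1.58 to 1.88), the opposite direction to the transferases. Neutrophil-like cells, at 673 and 669 CPM, lay near the retained level of 667 and 775.

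Sod1, the copper-zinc dismutase, had 149 and 119 CPM in erythroid-like cells, 91.4 and 93.5 in retained cells and 23.8 and 38.5 in neutrophil-like cells. The neutrophil-like level was 3.84-fold (2.10 to 7.82) and 2.43-fold (1.65 to 3.69) below the retained one, and the erythroid-like level 1.63-fold (1.33 to 1.99) and 1.27-fold (1.13 to 1.43) above it. Sod2, the manganese dismutase of mitochondria, followed the same order more flatly, with 188 and 222, 135 and 162 and 84.4 and 105 CPM. Across the 3 retained classes Sod1 stayed between 83.8 and 107 CPM and Sod2 between 125 and 169 CPM. Neighbouring classes in these orders overlapped in their intervals, so no order of the dismutases within the retained cells was detectable at this depth. In empty droplets Sod1 was at 105 and 139 CPM and Sod2 at 177 and 212.

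Counted over the members, 2 of 10 (Gclc and Gclm) were at least 2-fold higher in erythroid-like than in retained cells in both libraries, beside 6.98% of 11082 genes with at least 20 UMIs, and 2 (Gstm1 and Mgst1) were at least 2-fold lower, beside 29.2%. In neutrophil-like against retained cells, 3 members (Gstm1, Mgst1 and Gpx1) were at least 2-fold higher, where 4.14% of 10666 genes were, and 2 (Gsta4 and Sod1) were lower, where 25.9% were. Between HSC-like and megakaryocyte-like cells, the 3 transferases were at least 2-fold higher in HSC-like cells in both libraries, beside 9.03% of 9833 genes, and no member was 2-fold lower, beside 3.88%. The shares of members lower in erythroid-like cells and in neutrophil-like cells were no larger than those of all genes.

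The transferase contrast within the retained cells was the sharpest among the members. HSC-like cells exceeded megakaryocyte-like cells by 3.32-fold (2.35 to 4.80) in Id2+/+ and 7.14-fold (5.22 to 9.96) in Id2Δ/Δ for Gstm1. For Mgst1 the ratios were 5.78-fold (2.10 to 22.1) and 17.2-fold (7.06 to 54.5), and for Gsta4 4.90-fold (1.51 to 25.2) and 17.6-fold (6.54 to 66.6), with the wide intervals that 3 to 5 UMIs in megakaryocyte-like cells leave. The 7 other members differed between the classes by less than 2-fold in both libraries. Neutrophil-like cells were rich in Gstm1 and Mgst1. The 12 neutrophil-lineage markers summed to 1236 and 909 CPM in HSC-like and 929 and 454 in megakaryocyte-like cells, against 74366 and 95165 in neutrophil-like cells. The highest single marker made up 422 and 514 CPM of the HSC-like sums. Elane lay the other way in Id2+/+, at 213 CPM in HSC-like and 236 in megakaryocyte-like cells, but not in Id2Δ/Δ (74.03 and 54.1). The part of neutrophil-lineage RNA in the Gstm1 and Mgst1 values was not tested, and Gsta4 was at or near 0 in neutrophil-like cells. The same 3 transferases were called when the empty-droplet profile was subtracted.

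By cluster, Gstm1 had 209.6 CPM in the Id2+/+ cells of c0 and 212 in the Id2Δ/Δ cells of c1, which hold most HSC-like cells of each library. The megakaryocyte-like cluster c8, with the mitotic genes Fam64a and Pbk among its leaders, had 25.3 CPM of Gstm1, 1 UMI of Mgst1 and 0 of Gsta4 in Id2Δ/Δ. The same cluster had 1159 CPM of Gpx4, the highest level of the 6 retained clusters in that library, and 584 of Gpx1, the lowest. Cluster c5, with Ccnb2 among its leaders, showed the reverse in Id2Δ/Δ, 1161 CPM of Gpx1 and 555 of Gpx4. In Id2+/+, where c8 held 4 cells, it had 735 CPM of Gpx4 and 842 of Gpx1, and the contrast with c5 (642 and 930.1) was smaller. Gsta4 stood at 53.3 CPM in the Id2Δ/Δ cells of c1 and at 23.6 in the Id2+/+ cells of c0. The few cells on the other side had 31.7 CPM in c1 of Id2+/+ and 15.1 in c0 of Id2Δ/Δ, 3 UMIs each.

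Between genotypes, the retained cells gave Id2Δ/Δ over Id2+/+ ratios from 0.743 to 1.24. No member was higher by 1.5-fold, beside 3.76% of 10458 genes, and none was lower by 1.5-fold, beside 13.3%. The median log2 ratio of the 10 members was 0.12, that of all genes -0.07. Ratios of 8 members lay above 1, beside 41.9% of all genes tested, and for 3 of them the counting interval did too, beside 10.2%. These were Gpx1 at 807 and 872 CPM, a ratio of 1.08 (1.02 to 1.14), Gpx4 at 667 and 775 CPM, 1.16 (1.09 to 1.24), and Sod2 at 135 and 162 CPM, 1.20 (1.04 to 1.38). Gstm1 was the only member with an interval below 1, beside 13.3% of all genes, at 146 and 109 CPM and a ratio of 0.743 (0.644 to 0.858). Gclm, at 145 and 164 CPM, had 1.13 (0.992 to 1.30). For Gclc (1.01, interval 0.693 to 1.49), Gss (1.24, interval 0.817 to 1.92), Gsta4 (1.10, interval 0.739 to 1.65), Mgst1 (0.968, interval 0.699 to 1.35) and Sod1 (1.02, interval 0.862 to 1.22) the intervals held 1, and those of Gss and Gsta4 also held 1.5. Several measured quantities also differed between the libraries. HSC-like cells, rich in Gstm1, were 51.95% of Id2+/+ and 25.8% of Id2Δ/Δ cells under the mitochondrial limit, neutrophil-lineage markers in retained cells summed to 1117 and 657 CPM, and empty droplets had 214 and 101.6 CPM of Gstm1. The log2 ratio of Gstm1 was -0.43, and -0.34 with the empty-droplet profile subtracted. The mean of the log2 ratios of the 3 retained classes, a setting chosen after seeing the data, was -0.31. Those ratios were 0.09 in HSC-like, -1.01 in megakaryocyte-like (38 and 46 UMIs) and -0.02 in other retained cells. The part of neutrophil-lineage RNA in the Gstm1 ratio was not tested.

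**Figure D2:**
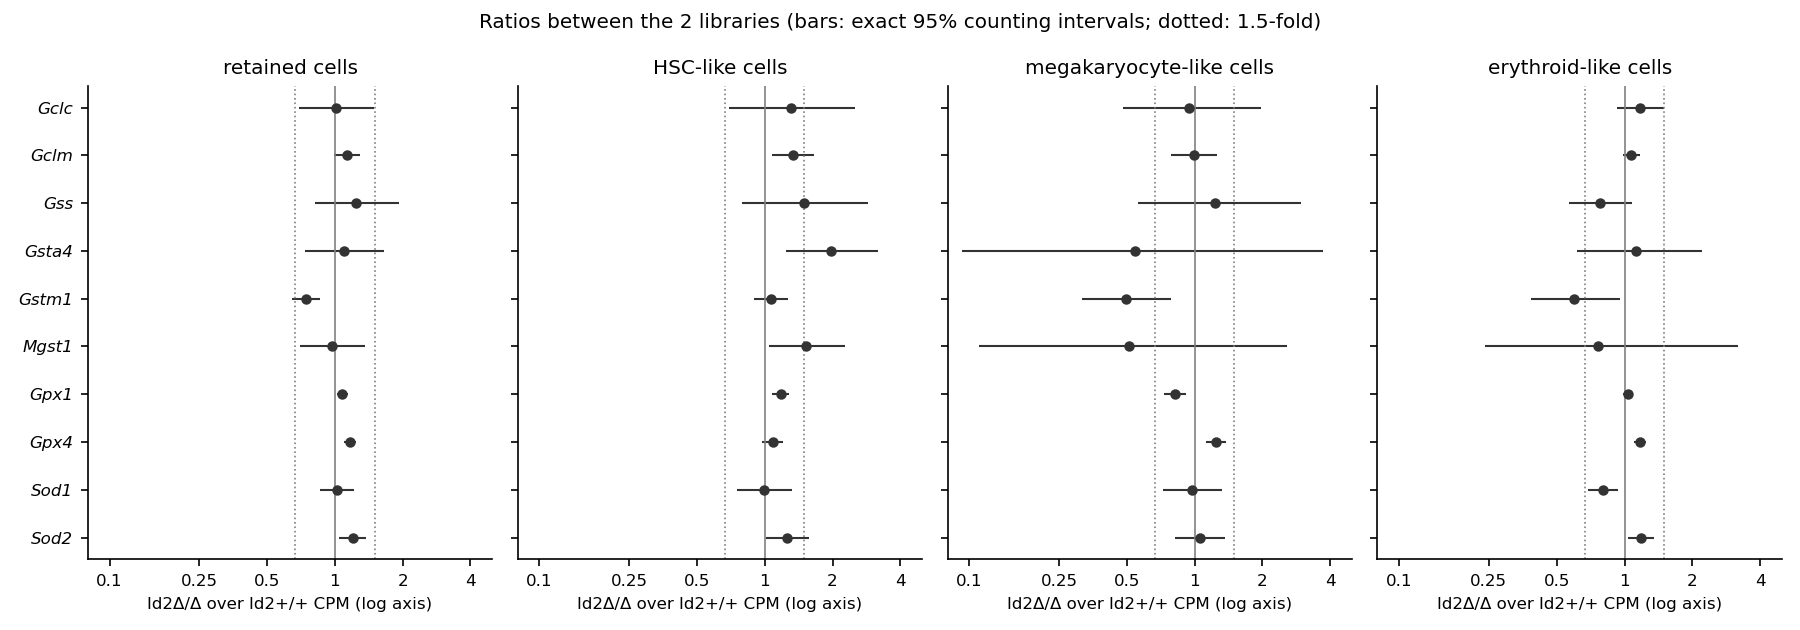
Id2Δ/Δ over Id2+/+ ratio of CPM (log axis) of the 10 genes in retained cells and, among them, HSC-like and megakaryocyte-like cells, and in erythroid-like cells, with exact 95% counting intervals and dotted lines at 1.5-fold. All 10 points of the retained cells lie inside the dotted lines, while Gsta4 and Mgst1 pass them upward in HSC-like cells and Gstm1 passes them downward in megakaryocyte-like and in erythroid-like cells with intervals below 1. The megakaryocyte-like points of Gsta4 and Mgst1 also lie past the lower line, on few UMIs and with intervals that hold 1.

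Within HSC-like cells 9 of 10 ratios were above 1, beside 45.3% of all genes tested, and the median log2 ratio was 0.36 over the members and -0.04 over all genes. Gsta4 was at 24.3 and 47.6 CPM, a ratio of 1.96 (1.24 to 3.18), and Mgst1 at 38.1 and 58.2 CPM, 1.52 (1.04 to 2.26). These were the 2 members higher by 1.5-fold, beside 5.47% of 8735 genes, and none was lower by 1.5-fold, beside 12.4%. Gclm (1.33, interval 1.08 to 1.65), Sod2 (1.26, interval 1.01 to 1.57) and Gpx1 (1.18, interval 1.08 to 1.28) also had intervals above 1, which makes 5 members, beside 5.71% of all genes, whereas Gstm1 had 1.07 (0.897 to 1.27). The class was filled from different clusters in the 2 libraries, c0 in Id2+/+ and c1 in Id2Δ/Δ. Within c0 the Gsta4 level was 23.6 CPM in Id2+/+ and 15.1 in Id2Δ/Δ, and within c1 31.7 and 53.3, with 3 UMIs in the sparser library of each cluster. Within c0 Gpx1 lay the other way, at 786 and 683 CPM, and Sod2 was level, at 128 and 126, while within c1 they stood at 867 and 977 and at 84.6 and 163. Gclm was at 126 and 151 CPM in c0 and 190.4 and 179 in c1, and Mgst1 at 38.7 and 40.2 and at 31.7 and 61.3. The intervals of the libraries overlapped within each cluster for these 5 members, and cluster and library cannot be told apart in the ratios of the class. At the coarser resolution of 0.5, where 1 cluster held 172 and 175 HSC-like cells, the Gsta4 ratio was 1.83 (1.16 to 2.97) and the Mgst1 ratio 1.45 (0.989 to 2.16), and at resolution 2 they were 1.73 (0.870 to 3.83) and 1.63 (0.905 to 3.13). Among HSC-like cells with Xist and with Y-linked UMIs alone, the Gsta4 ratio was 1.56 (0.748 to 3.56) and 1.85 (0.779 to 4.50), and the Mgst1 ratio 1.46 (0.783 to 2.90) and 1.15 (0.542 to 2.38), so that Mgst1 passed 1.5-fold in neither set and all 4 intervals held 1. After the empty-droplet profile was subtracted the Gsta4 ratio was 1.93. The counts over the members depended on these choices, and so did the share called among all genes with at least 20 UMIs. With Gsta4 among them each time, 1 member was higher by 1.5-fold at resolution 0.5, beside 5.47% of all genes, and 4 at resolution 2 (with Mgst1, Gss and Gclc), beside 11.2%. After subtraction there were 3 (with Mgst1 and Gss), beside 7.37%, and in the Xist cells 4 (with Gss, Gclc and Sod2), beside 10.6%. In the Y-linked cells it was 1 of 8 members, beside 8.81%, since Gss and Gclc had only 11 and 12 UMIs over both libraries. Sod1 was lower by 1.5-fold in the Xist cells, at 0.654 (0.429 to 1.01), beside 12.4% of all genes. Intervals above 1 numbered 4 at resolution 0.5, beside 6.01%, 2 at resolution 2 (Gclm and Gpx1), beside 5.51%, 2 in the Xist cells (Gclm and Sod2), beside 4.26%, and 0 in the Y-linked cells, beside 4.58%. In megakaryocyte-like cells Gstm1 was at 62.7 and 31.1 CPM, a ratio of 0.496 (0.316 to 0.783). It was 0.642 (0.321 to 1.32) in the Xist cells of the class and 0.756 (0.284 to 2.13) in its Y-linked cells, 13 and 14 in number, where 1.5-fold was no longer passed, and both intervals held 1. Gpx1 was at 805 and 657 CPM there, 0.816 (0.731 to 0.912), and Gpx4 at 833 and 1036, 1.24 (1.12 to 1.38). Gsta4 (3 and 4 UMIs) and Mgst1 (4 and 5) were too sparse for a direction.

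Erythroid-like cells also came from different clusters in the 2 libraries: c9 held 27 and 0 Id2+/+ and Id2Δ/Δ cells, c4 0 and 103, and c7 8 and 53. Here the ratios of Gclm (1.07, interval 0.985 to 1.17), Gclc (1.17, interval 0.923 to 1.49) and Gpx1 (1.04, interval 0.985 to 1.09) had intervals that held 1. Gpx4 (1.17, interval 1.11 to 1.246) and Sod2 (1.18, interval 1.03 to 1.35) were slightly higher in Id2Δ/Δ, as in retained cells, and Sod1 was lower, 0.799 (0.685 to 0.936). Gstm1, at 28 and 77 UMIs, was the 1 member of 9 with at least 20 UMIs that was lower by 1.5-fold, 0.599 (0.384 to 0.960), beside 10.9% of 8796 genes. None was higher by 1.5-fold, beside 6.48%. Over the 4 other settings tried in these cells the log2 ratio of Gstm1 ran from -0.95 to -0.46, so 1.5-fold was not passed in every one. Gstm1 in erythroid-like cells lay below its level in empty droplets, 214 and 101.6 CPM, and the droplet level was lower in Id2Δ/Δ too. Gstm1 in neutrophil-like cells had the other direction, 1.24 (1.11 to 1.39), and Mgst1 there had 1.28 (0.979 to 1.68). Gpx1 and Gpx4 in neutrophil-like cells were level between the libraries, 0.9997 (0.926 to 1.08) and 0.994 (0.860 to 1.15). The erythroid-like Sod2 ratio had an interval that held 1 without the haemoglobin-rich cells (1.13, interval 0.991 to 1.30). With 7 and 33 erythroid-like cells, the cells carrying Y-linked and no Xist UMIs gave a median log2 ratio over the members of -0.25, against 0.08 over all erythroid-like cells, with log2 ratios of 1.15 for Gclc, -0.88 for Gsta4 and -0.21 for Sod2.

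The share of cells with a UMI was compared after each cell was thinned to 5800 UMIs, which left out 66 shallower retained cells of Id2+/+ and 0 of Id2Δ/Δ. Of these, 61 were HSC-like, so the HSC-like shares rest on the 112 deeper of 173 such cells in Id2+/+ and on all 161 in Id2Δ/Δ. Among retained cells, a UMI of Gpx1 was seen in 97.4% (94.1 to 99.2) of Id2+/+ and 98.3% (96.6 to 99.3) of Id2Δ/Δ cells, and 1 of Gpx4 in 96.4% (92.8 to 98.6) and 97.6% (95.6 to 98.8). Gclm, Gstm1, Sod2 and Sod1 had shares between 37.2% and 61.5%, and Gsta4, Mgst1, Gss and Gclc between 6.12% and 16.8%. For all 10 members the intervals of the 2 libraries overlapped in retained cells, and without thinning Gsta4, for example, was in 12.6% and 18.3% of cells. Gstm1 was in 71.4% (62.1 to 79.6) and 69.6% (61.8 to 76.6) of HSC-like cells, 34% (21.2 to 48.8) and 22.4% (14.03 to 32.7) of megakaryocyte-like cells and 4.76% (0.582 to 16.2) and 7.10% (3.72 to 12.1) of erythroid-like cells. Before thinning the median depths were 33769.5 and 38755 UMIs in erythroid-like and 6367 and 7848 in HSC-like cells, so the erythroid-like share can understate free RNA in the shallower cells, where free Gstm1 was estimated at 22.4 and 5.49 CPM over all retained cells. Mgst1 followed with 16.1% (9.81 to 24.2) and 30.4% (23.4 to 38.2) of HSC-like cells against 8% (2.22 to 19.2) and 1.18% (0.0298 to 6.38) of megakaryocyte-like cells. Gsta4 was in 11.6% (6.33 to 19.03) of Id2+/+ and 25.5% (18.9 to 32.9) of Id2Δ/Δ HSC-like cells, whose intervals barely overlapped. It was in 0 of 27 and 0 of 40 neutrophil-like cells, with exact upper bounds of 12.8% and 8.81%, and in 0 and 2 of them without thinning. Gclc was in 14.3% (5.43 to 28.5) of erythroid-like and 9.69% (5.94 to 14.7) of retained cells in Id2+/+, where the intervals overlapped, and in 30.2% (23.4 to 37.7) and 11.8% (8.84 to 15.3) in Id2Δ/Δ. Over 20 other random draws the share of retained cells in Id2Δ/Δ minus that in Id2+/+ stayed above 0 for 3 members, Gsta4 (from 0.584 to 6.32 percentage points), Mgst1 (from 1.10 to 5.09) and Gss (from 0.942 to 5.87), and below 0 for Gstm1 (from -9.43 to -2.73). It took both signs for the 6 others, over the widest range for Sod1 (from -4.99 to 9.93). The draws thinned the same cells again, so they vary the thinning only and are not replicates. Neither these signs nor the overlap of the intervals was counted over all genes. A retained cell held a median of 4 of the 10 members in both libraries.

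**Figure D3:**
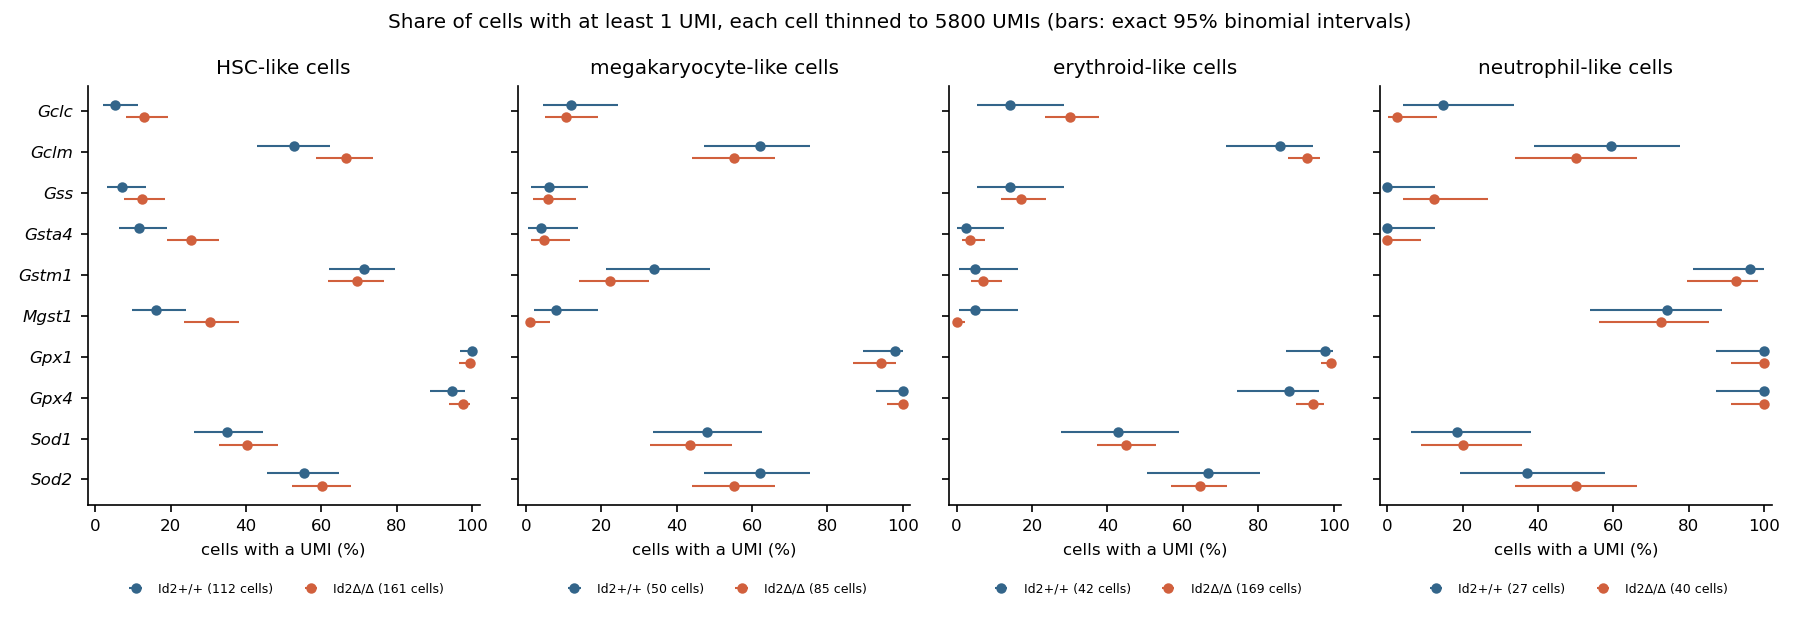
Share of cells with at least 1 UMI of each gene after thinning each cell to 5800 UMIs, in 4 groups of cells, blue for Id2+/+ and orange for Id2Δ/Δ, with exact 95% binomial intervals. Gstm1 and Mgst1 are lower in megakaryocyte-like and erythroid-like than in HSC-like cells and highest in neutrophil-like cells, while Gpx1 and Gpx4 are seen in over 88% of cells in all groups.

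The wider lists of glutathione and antioxidant genes held 79 genes beside the members, 62 of them with at least 20 UMIs in retained cells. Their median log2 ratio was -0.04, with 2 higher and 4 lower by 1.5-fold, against the 3.76% and 13.3% of all genes given above. Peroxide and superoxide removal, members included, had a median of 0.11 over 21 genes and 7 intervals above 1 and 1 below it (Sesn1, at a ratio of 0.713), where 10.2% and 13.3% of all genes had them. Of the 6 peroxiredoxins, Prdx1 (1.28, interval 1.20 to 1.36), Prdx2 (1.11, interval 1.03 to 1.19) and Prdx4 (1.30, interval 1.12 to 1.51) had intervals above 1, and those of Prdx3 (1.11, interval 0.978 to 1.27), Prdx5 (1.08, interval 0.966 to 1.22) and Prdx6 (0.996, interval 0.925 to 1.07) held 1. The 7 genes of the thioredoxin system had a median of -0.07, with 3 ratios above 1. Txn1, the cytosolic thioredoxin, had 1.27 (1.19 to 1.35) and Txnip, its inhibitor, 0.734 (0.654 to 0.824). Glutathione synthesis and turnover had a median of -0.01 over 16 genes, with the reductase Gsr at 1.27 (1.03 to 1.56). The 16 transferases had a median of -0.08. Of the 12 NRF2 regulators and targets, with a median of -0.14, Fth1 had an interval above 1 and Ftl1, Mafk and Sqstm1 had intervals below it.

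By the naming rule, 4 genes beside the members passed 1.5-fold with at least 50 UMIs and an interval away from 1. The pi-class transferase Gstp1 had 191 and 123 CPM, a ratio of 0.645 (0.568 to 0.735). It was lower in Id2Δ/Δ in HSC-like (184 and 111 CPM), megakaryocyte-like (196 and 126), erythroid-like (315 and 202) and neutrophil-like cells (126 and 61.9). Gstp1 has near-identical copies, whose reads its row may share or lose. Sqstm1, an autophagy receptor that binds the NRF2 inhibitor Keap1, had 72.7 and 42.5 CPM, 0.585 (0.471 to 0.726). Its levels lay apart in megakaryocyte-like cells (72.6 and 17.6 CPM) and closer together in HSC-like (81.5 and 66.5), other retained (45.5 and 45.1) and erythroid-like cells (42.1 and 39.5), and empty droplets had 74.8 and 47.6 CPM. Ggt5, a gamma-glutamyl transferase, had 34 and 40 UMIs, 0.536 (0.331 to 0.872). Gstm7, a mu-class relative of Gstm1, was the 1 gene on the higher side, with 14 and 58 UMIs and a ratio of 1.89 (1.04 to 3.66).

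**Figure D4:**
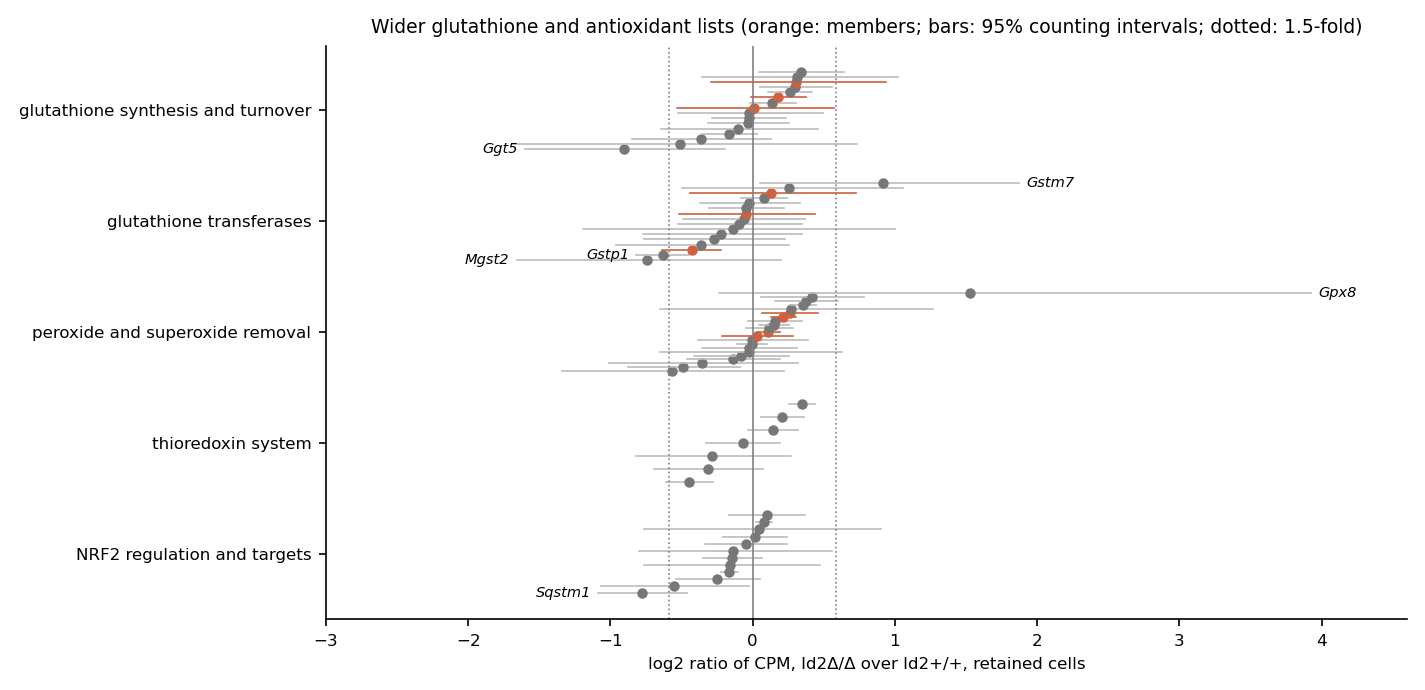
Log2 ratio of CPM, Id2Δ/Δ over Id2+/+, in retained cells for each gene with at least 20 UMIs of 5 glutathione and antioxidant lists, members in orange, with 95% counting intervals and dotted lines at 1.5-fold. The members lie inside the dotted lines, and the 6 genes outside them (Gpx8, Gstm7, Ggt5, Gstp1, Mgst2 and Sqstm1) are named.

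Both libraries held cells with Xist UMIs and cells with UMIs of Y-linked genes. In retained cells, 84 Id2+/+ and 231 Id2Δ/Δ cells had Xist and no Y-linked UMIs, and 93 and 90 the reverse, so the mix of the 2 sets differed between libraries. The rest of the 262 and 416 retained cells were in neither set, and the sets were not matched for depth or class. Of 173 and 161 HSC-like cells, 48 and 85 were in the Xist set and 67 and 36 in the Y-linked set. The Gpx4 ratio was 1.01 (0.921 to 1.11) in the Xist cells and 1.27 (1.12 to 1.43) in the Y-linked cells, with an interval above 1 in the second set only, and the difference between the sets was not tested. Gpx1, with an interval above 1 over all retained cells, had 1.06 (0.969 to 1.15) and 1.01 (0.905 to 1.13), both intervals holding 1. Gstm1 had 0.917 (0.716 to 1.18) and 0.796 (0.611 to 1.04), both closer to 1 than in all retained cells and with intervals that held 1. Sod2 had 1.23 (0.999 to 1.54) and 1.17 (0.891 to 1.54) and Gclm 1.14 (0.928 to 1.41) and 1.17 (0.895 to 1.53), above 1 in both sets with intervals that held 1. Gclc passed 1.5-fold in the Xist cells, 1.69 (0.822 to 3.90), on 9 and 51 UMIs. Some members with a ratio above 1 over all retained cells lay below 1 in a set. They were Gsta4 (0.895), Gss (0.824) and Gclc (0.942) in the Y-linked cells and Sod1 (0.840) in the Xist cells, all with intervals that held 1.

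Over the 12 combinations of 6 groups of cells and 2 libraries, with haemoglobin-rich cells as a group of their own, the gene whose log2 level was most like that of each member was found by Pearson's r among 7696 genes with at least 20 CPM in 1 combination. The 12 points share libraries and depth, so r is a description. Gstm1 and Mgst1 had the same nearest gene, Xpc (r = 0.984 and 0.963), a DNA damage recognition factor. For the ligase subunits they were Sept8 (r = 0.965) for Gclc and Mgst3 (r = 0.969) for Gclm, Mgst3 being another microsomal transferase, which stood at 297 and 381 CPM in erythroid-like and 46.9 and 46.1 in retained cells. Gss was nearest to Oxnad1 (r = 0.954), Gsta4 to Xaf1 (r = 0.927) and Gpx1 to Ctsb (r = 0.886). Gpx4 was nearest to Ndufab1 (r = 0.996), Sod1 to Mdp1 (r = 0.990) and Sod2 to Luc7l3 (r = 0.990). No member was the nearest gene of another.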

How the data were processed

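Per the labels and the study, 10x Genomics libraries of sorted HSCs were made from 2 samples, 1 for each genotype, and the submitters' processing notes name Cell Ranger 2.2.0 and mm10. The authors deposited UMI counts for every barcode, as a matrix, a gene list and a barcode list per sample. From these counts, barcodes with at least 10% of the 99th percentile of UMIs among the 1000 deepest were called as cells, and only those under 10% mitochondrial UMIs were used. Cells were clustered together without the members and the wider lists (2000 variable genes, 20 components, 15 neighbours, leidenalg 0.10.2 at resolution 1, scikit-learn 1.9.0). Clusters counted as another cell type, and were not retained, where 4 or more of its markers passed a log2 fold of 1 while seen in 25% or more of the cells and HSC markers averaged lower. Clusters over 50% haemoglobin are part of the erythroid-like cells. The HSC-like and megakaryocyte-like classes (at least 3 markers) were set after the clusters were seen.

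Counts were summed over cells and scaled to CPM. Poisson, ratio and Clopper-Pearson intervals came from scipy 1.17.1, and for the fold of Gsta4 in neutrophil-like cells a count of 0 was also set at 3 counts. Genes with at least 20 UMIs over both groups formed the background. Thinning drew 5800 UMIs per cell, the 10th percentile of the retained cells rounded down to 100. The steps were tested on simulated data. Scrublet marked 2 of 333 and 1 of 625 cells as doublets, and none were removed in the main values. Neutrophils and red cells were, as the authors describe, also taken out by clusters. All 10 members, the genes beyond them past 1.5-fold with at least 50 UMIs and an interval away from 1, and the gene most alike to each member (log2 of CPM + 10) are named. A few other genes of the lists are named with their values, chosen after the values were seen. The members and lists were chosen with earlier results of these data known. Promoters and proteins were not analysed here. Alternatives covered cell calls, mitochondrial limit, clustering, scaling, free RNA, depth, doublets and sex-linked cells. Added after seeing the data were single classes of retained cells, the mean of the log2 ratios of the 3 classes, and the contrasts between kinds of cell and within classes under other settings.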

Additional observations from a re-analysis of the deposited data

Results flagged for a closer look

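Gstm1 had ratios on opposite sides of 1 in different kinds of cell, with both counting intervals away from 1. Its Id2Δ/Δ over Id2+/+ ratio was 0.743 in retained cells and 0.599 in erythroid-like cells, but 1.24 in neutrophil-like cells. Within the retained cells it was 1.07 (0.897 to 1.27) in HSC-like, 0.496 (0.316 to 0.783) in megakaryocyte-like and 0.987 (0.680 to 1.47) in other retained cells. Among retained cells with Xist alone it was 0.917 (0.716 to 1.18), and with Y-linked UMIs alone 0.796 (0.611 to 1.04), both intervals holding 1. In empty droplets the level of Gstm1 was 214 and 101.6 CPM, lower in Id2Δ/Δ as in retained and erythroid-like cells.

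Gpx1 had a ratio of 1.18 in HSC-like cells and 0.816 in megakaryocyte-like cells. At resolution 0.5, where the megakaryocyte-like class held 73 and 141 cells, the second ratio was 0.956 (0.873 to 1.05), and at resolution 2 it was 0.852 (0.741 to 0.983). Among cells where Xist but no Y-linked gene was counted the ratios were 1.06 (0.929 to 1.22) in HSC-like and 0.924 (0.793 to 1.08) in megakaryocyte-like cells, and among those where the reverse held 1.12 (0.949 to 1.33) and 0.687 (0.543 to 0.871), so the opposite directions with both intervals away from 1 were seen in neither set. HSC-like cells were mostly c0 in Id2+/+ and c1 in Id2Δ/Δ, and Gpx1 was at 786 and 683 CPM within c0 and at 867 and 977 within c1. The level of Gpx1 in Id2Δ/Δ was 707 CPM in c3 and 584 in c8, and c8 held 4 Id2+/+ and 27 Id2Δ/Δ cells. Neither difference between kinds of cell was tested, since each genotype had 1 library.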

How the results depend on the processing

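No paired analysis was possible because the genotypes had a single library each. Across the 17 planned settings the median log2 ratio of the members in retained cells ran from -0.04 to 0.31, and no member passed 1.5-fold except as follows. With all cell types left in, Gstm1 was lower (1 member), in cells thinned to 5800 UMIs, a single random draw, Gsta4 was higher (1), in the Xist cells Gclc was higher (1), and at the lower fold tried Gstm1 was lower (1). In HSC-like cells only, a setting chosen after seeing the data, the median was 0.36. There 2 members (Gsta4 and Mgst1) were higher by 1.5-fold, beside 5.47% of all genes tested. In megakaryocyte-like cells only, likewise chosen later, 3 members (the transferases) were lower by 1.5-fold. Of these, Gsta4 and Mgst1 were under 20 UMIs with intervals that held 1. Gclc, Gclm, Gpx1 and Sod1 also had ratios below 1 there, short of 1.5-fold. The share of all genes past the fold was counted for HSC-like cells but not for the other exceptions named here. The Gstm1 log2 ratio ran from -0.68 to -0.04 over the planned settings, below 0 throughout, and was 0.09 in HSC-like cells only. In erythroid-like cells the median was -0.25 in the Y-linked cells alone. Also in those cells, and chosen after seeing the data, 1 member (Gclm) in place of 2 was 2-fold higher in erythroid-like than in retained cells, and 1 (Gsta4) in place of 2 was lower in neutrophil-like cells. In the wider lists the genes higher by 1.5-fold numbered 1 at a minimum of 50 UMIs, and with all cell types left in 5 were higher and 7 lower. Counts of members between kinds of cell were otherwise within 1.5 times those given, at resolutions 0.5 and 2 and with other totals. Single members moved beyond their counting interval in 35 of 239 settings by member and changed sign in 30, among them Mgst1 under TMM and centring and Gss, Gsta4 and Gclc in the Y-linked retained cells. TMM factors shifted every log2 ratio by 0.11 and centring by 0.07. Counts limit Gclc, Gss, Gsta4 and Mgst1 most, at 32 to 56 UMIs in the retained Id2+/+ cells. The cause of these shifts was not tested.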
